A study of Homo sapiens with 6 samples.

Results

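Pseudogene-only loci are places in the genome where every annotated transcript is classed as a pseudogene. Of 60835 loci in the deposited table, 13578 were of this kind, and 1913 of them had a count of at least 12 in at least 3 of the 6 libraries. These 1913 loci are described here. The cells were ARPE-19, an established human retinal pigment epithelium line, of wild-type genotype. Of the 2 groups, the 1st was kept for 72 h in a normal concentration of glucose and the 2nd for 72 h in a high concentration, with 3 libraries in each. Neither concentration is given in the labels. Nor is it stated that the 3 libraries of each group are separate cultures, and p-values then measure only how far these libraries scatter, part of which may be technical.

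A pseudogene is a copy of a gene that has lost the ability to make the full protein. A processed pseudogene forms when an mRNA is copied back into DNA and inserted elsewhere, so it usually lacks the introns and the promoter of its parent gene. An unprocessed pseudogene comes from the duplication of a stretch of DNA, and a unitary pseudogene is a gene that was itself disabled, with no working copy left in the genome. Highly transcribed genes, such as those for ribosomal proteins, tend to have many processed copies. Reads from a processed copy can be hard to tell from those of the parent, and a copy inside an intron of another gene can collect reads from the unspliced transcript of that gene.

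HSPA5, the gene for the endoplasmic reticulum chaperone BiP, has the processed copy HSPA5P1. Its fitted log2 change, -3.29, was the greatest in size of any tested parent of these pseudogenes. The 250 bases before the start of HSPA5 lie on the minus strand of chr9:125241344-125241593 (RefSeq, GRCh38.p14). They are shown because this is the kind of sequence a processed copy leaves behind. Capitals mark the match to the endoplasmic reticulum stress element, searched on both strands as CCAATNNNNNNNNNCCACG. It starts 66 bases before the gene's start and occurs in 0.074% of the 35116 promoter windows of 250 bases in the same table.
HSPA5 promoter: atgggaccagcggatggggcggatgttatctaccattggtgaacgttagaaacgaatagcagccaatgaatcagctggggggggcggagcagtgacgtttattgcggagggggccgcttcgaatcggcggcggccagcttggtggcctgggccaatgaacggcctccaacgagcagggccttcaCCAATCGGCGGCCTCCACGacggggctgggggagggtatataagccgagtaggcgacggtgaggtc
A match of letters does not show that a factor binds there. Only 4 of the 1913 loci had a promoter entry, and none of these was called.

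Total counts ran from 81616741 to 87748820 per library. Retinal pigment epithelium markers were partly present: 10 of 13 reached 12 counts in all 6 libraries, while RPE65, TTR and TYR stayed under 20. The summed level of the 13 markers ran from 583.9 to 1126.8 CPM (counts scaled to library size) in normal glucose and from 2241.4 to 2356.8 CPM in high glucose. KRT8 (25930, 22277 and 51709 counts against 109098, 110365 and 102731) and KRT18 (16218, 16069 and 29878 against 76750, 83300 and 72859) carried that difference: the other 11 markers summed to 137.9 to 158.8 CPM in normal and to no more than 128.3 CPM in high glucose. The summed level of 6 fibroblast markers ran from 111.8 to 232.7 CPM in normal glucose and from 178.9 to 179.5 CPM in high glucose, and 4 of the 6 reached 12 counts in all libraries. These 6 went different ways: PDGFRB had 8783, 9048 and 7975 counts against 14244, 14337 and 13232, while the other 5, among them COL1A1 (7476, 3363 and 1071 against 765, 690 and 671), summed to 17.1 to 132.6 CPM in normal and 13.9 to 17.1 CPM in high glucose, with the highest sum in normal glucose 1. Their part in the results below was not tested. The 3 normal glucose libraries varied more among themselves than the 3 high glucose libraries, with a biological coefficient of variation of 41% against 27.2%.

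The pseudogene loci held a small part of all counts, which was slightly smaller in high glucose. They held 0.538%, 0.592% and 0.568% of the counts in the normal glucose libraries and 0.478%, 0.496% and 0.492% in the high glucose libraries. The groups did not overlap. The levels were uneven: the median locus stood at 0.344 CPM, 1458 of the 1913 were under 1 CPM, and the 10 most abundant held 32.3% of all pseudogene CPM. The fitted log2 change from normal to high glucose had a median of -0.13 over the 1913 loci, beside a median of 0.00 over all 25025 loci tested.

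Few pseudogenes were called as changed by edgeR, which does not show that the others stayed the same. Its quasi-likelihood test used Benjamini-Hochberg adjustment over all 25025 loci and a threshold of 0.05. The test called 44 pseudogenes higher (2.3%) and 68 lower (3.55%) in high glucose. That is 5.85% of the 1913, against 19.6% of all tested loci (9.75% higher and 9.86% lower) and 25.5% of loci with a protein-coding transcript. Counted without a test, 25.8% of pseudogenes had libraries that did not overlap between groups, against 42.3% of all tested loci. The counts depended on single libraries: without normal glucose 3 they were 82 higher and 115 lower, without normal glucose 1 they were 25 and 32, and without normal glucose 2 they were 22 and 31. Without high glucose 1, 2 and 3 in turn they were 11, 9 and 11 higher and 23, 20 and 23 lower. All 112 called loci kept their sign in the 6 omissions, and 24 were called in every one of them.

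The share called rose with the level. It was 2.09% of 719 pseudogenes under 0.25 CPM, 4.74% of 739 from 0.25 to 1 CPM, 9.7% of 361 from 1 to 10 CPM and 28.7% of 94 at 10 CPM or more. Loci with a protein-coding transcript at the same levels were called in 5.45%, 11.5%, 25.7% and 28.4% of cases, and all tested loci in 3.97%, 9.03%, 24.1% and 28.6%. The shares were therefore close to each other only among the most abundant loci, and no test was made of the difference between the classes. The directions there were less alike: 7 pseudogenes were called higher and 20 lower, with a median log2 change of -0.32. Loci with a protein-coding transcript at 10 CPM or more had 1243 called higher and 1432 lower, with a median of -0.01. Some loci met the count floor through 1 group alone and so had to differ: 49 through normal glucose, of which 13 were called lower, and 36 through high glucose, of which 12 were called higher. Without these 85 loci, 32 pseudogenes were called higher and 55 lower.

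**Figure D1:**
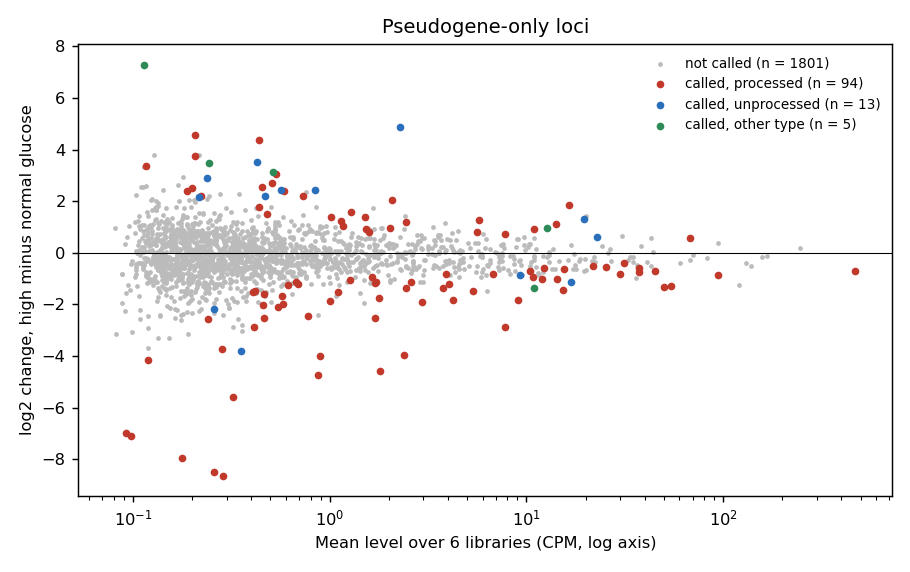
Mean level over the 6 libraries (CPM, log axis) against the log2 change from normal to high glucose for each of the 1913 pseudogene loci. Coloured points are the 112 called loci by pseudogene type (94 processed, 13 unprocessed, 5 of another type), and the points beyond 6 in either direction are loci with few or no counts in 1 group, whose fitted change depends on the prior count.

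**Figure D2:**
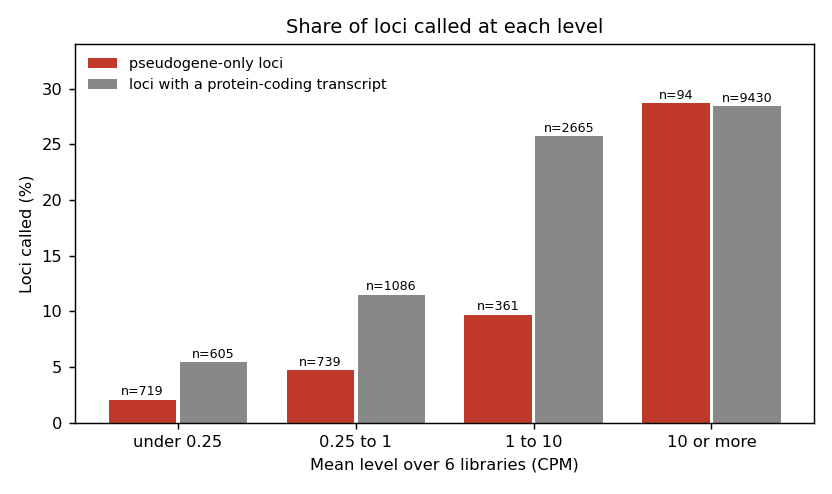
Percent of loci called (bars, from 0) at 4 ranges of mean level (CPM), for pseudogene-only loci and for loci with a protein-coding transcript, with the number of loci above each bar. The pair of bars differs most from 1 to 10 CPM (9.7% and 25.7%) and least at 10 CPM or more (28.7% and 28.4%).

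By type, 1687 of the loci were processed pseudogenes, of which 31 were called higher and 63 lower (5.57%), with a median log2 change of -0.14. The 189 unprocessed pseudogenes had 9 called higher and 4 lower (6.88%) and a median of -0.01. Both shares were near the 5.85% of all pseudogenes, and the difference in direction between the types was not tested. Without normal glucose 3 the processed loci had 68 called higher and 103 lower, and the unprocessed loci had 11 and 10. Of the 13 unprocessed calls, 5 were loci that met the floor through 1 group alone.

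The rarer types held few loci. Of 6 unitary pseudogenes, 2 were called higher and 1 lower. Of 4 loci that mixed several types, 1 was called higher. None of the 16 transcribed processed pseudogenes was called by edgeR, 1 rose and 1 fell at an unadjusted p under 0.05, and DESeq2 called 1 higher and 0 lower. None of the 4 transcribed unprocessed pseudogenes was called by edgeR, although 2 were lower at an unadjusted p under 0.05 and DESeq2 called the same number lower. The most abundant of the latter, CEP170P1, a copy of a centrosome protein gene, had 1292, 833 and 674 counts in normal and 680, 462 and 578 in high glucose, with a log2 change of -0.72 ± 0.269 (SE, adjusted p = 0.106 by edgeR).

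Among the most abundant loci of their types, several did not pass the test. The unprocessed WASH7P;WASH9P, copies of a gene for an actin nucleation complex, had 6335, 6359 and 4829 counts in normal and 4890, 4667 and 3958 in high glucose (log2 change -0.40, adjusted p = 0.0764 by edgeR). SPTLC1P1, a transcribed copy of a sphingolipid synthesis gene, had 90, 98 and 104 counts against 100, 62 and 95 (adjusted p = 0.669 by edgeR). RNA5SP317, a ribosomal RNA pseudogene, had 18, 20 and 9 against 48, 13 and 8 (adjusted p = 0.689 by edgeR), the highest in high glucose 1 alone. The mixed locus SHLD2P3;RHEBP2 had 1613, 1979 and 1597 against 1574, 1674 and 1209 (adjusted p = 0.322 by edgeR).

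The mixed locus that was called, CEACAMP5;RPS10P28;PSG8, holds a pseudogene of the carcinoembryonic antigen family and a ribosomal protein copy, and also carries the name PSG8. It had 1023, 541 and 639 counts in normal and 1538, 1561 and 1246 in high glucose, a log2 change of 0.96 ± 0.245 (SE, adjusted p = 0.0355 by edgeR), and the groups did not overlap. It stayed called only without normal glucose 1, and the adjusted p lay between 0.0562 and 0.115 in the other omissions. On the opposite strand it overlaps loci named PSG3 (log2 changes 1.68 and 3.16), PSG8 (0.48 and 0.61) and CEACAMP6 (-0.33). Among these only the PSG3 locus with 1.68 was called (adjusted p = 0.0249 by edgeR). Whether the counts of the mixed locus came from its pseudogenes was not tested.

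Unitary pseudogenes such as TSSK5P and CA15P1 are remnants of genes that still work in other mammals. TSSK5P, the remnant of a testis-specific kinase gene, had 1382, 1575 and 1096 counts in normal glucose and 437, 605 and 555 in high glucose. All high glucose libraries were below all normal glucose libraries, and the level fell from 15.8 ± 2.59 to 6.18 ± 1.11 CPM (SD, n = 3 each), a log2 change of -1.36 ± 0.205 (SE, adjusted p = 0.00754 by edgeR), called in every omission. CA15P1, a remnant of a carbonic anhydrase gene, had 7, 16 and 4 counts in normal and 105, 56 and 80 in high glucose (log2 change 3.12, adjusted p = 0.0133 by edgeR). Leaving out high glucose 1 gave an adjusted p of 0.0557, and leaving out high glucose 3 gave 0.0525. ACTBP13, which the table classes as unitary although its symbol marks it as a copy of the beta-actin gene, had no counts in normal glucose and 23, 12 and 24 in high glucose, at least 1.59-fold higher against a floor of 12 counts per library (adjusted p = 0.0187 by edgeR). It was among the loci that met the floor through high glucose alone, and leaving out high glucose 1, 2 or 3 gave an adjusted p of 0.0715, 0.057 or 0.0708.

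The single T cell receptor gamma variable pseudogene, TRGV7, belongs to a locus that is rearranged in T cells. It had 0, 7 and 3 counts in normal and 43, 41 and 33 in high glucose, so that it met the floor through high glucose alone. Its log2 change was 3.47 ± 0.944 (SE, adjusted p = 0.0428 by edgeR), and the adjusted p became 0.0633 when normal glucose 3 was left out and 0.117, 0.118 or 0.103 when high glucose 1, 2 or 3 was. SIGLEC16, a polymorphic pseudogene of the sialic acid-binding lectin family that is intact in some people, had 43, 30 and 21 counts in normal and 17, 2 and 8 in high glucose, and did not pass the test (adjusted p = 0.149 by edgeR).

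Among the pseudogenes of the translation machinery, the called loci were lower in high glucose. Of 232 ribosomal protein pseudogenes, 15 were called lower and 0 higher by edgeR (6.47%, beside 5.85% of all pseudogenes), and the median log2 change was -0.34. At an unadjusted p under 0.05 the counts were 44 lower and 4 higher, and DESeq2 called 33 lower and 2 higher. Of the 83 at 1 CPM or more, 72 had a log2 change below 0, with a median of -0.41. Their 62 tested parent genes had 11 called lower and 1 higher, beside 9.86% lower and 9.75% higher among all tested loci. Among the 9430 loci with a protein-coding transcript at 10 CPM or more, 1432 were called lower and 1243 higher. The parents were not matched to loci of their level. Across the 6 omissions between 4 and 29 ribosomal protein pseudogenes were called lower, the most without normal glucose 3. The direction of these lists was already known from earlier results on the same libraries.

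RPL13AP5 is a copy of RPL13A, which encodes a protein of the large ribosomal subunit. It had 9840, 10699 and 10430 counts in normal glucose and 5867, 5651 and 6041 in high glucose. Each group was tight and the groups did not overlap. The level fell from 121.0 ± 6.59 to 67.8 ± 4.82 CPM (SD, n = 3 each), a log2 change of -0.84 ± 0.105 (SE, adjusted p = 0.00459 by edgeR), and the locus that holds RPL13A with other genes had a log2 change of -0.69. RPL14P1, a copy of the large subunit gene RPL14, fell by 0.69 on the log2 scale, with 4583, 4879 and 4749 counts against 3285, 3075 and 2628 (adjusted p = 0.00853 by edgeR), and RPL14 by 0.54. Both pseudogenes were called in every omission.

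Copies of RPSA, which encodes a small subunit protein also known as the laminin receptor, were the largest ribosomal set with calls. Of 16, 4 were called lower and 0 higher by edgeR, beside 3.55% lower and 2.3% higher of all pseudogenes. At an unadjusted p under 0.05, 9 of the 16 were lower and 0 higher, and DESeq2 called 6 lower and 0 higher. Their median log2 change was -0.74, and the RPSA locus had -0.46 (adjusted p = 0.02 by edgeR). RPSAP44 had 776, 579 and 348 counts in normal and 157, 199 and 125 in high glucose, a log2 change of -1.84 ± 0.323 (SE, adjusted p = 0.0115 by edgeR). It overlaps, on the other strand, a longer locus that carries the names RPSAP44 and KRASP1. That longer locus fell by 2.67 on the log2 scale, from a mean of 96.7 to 15.2 CPM. The shorter RPSAP44 locus lost its call without high glucose 1 (adjusted p 0.0526) or high glucose 3 (0.0537). None of the 15 copies of RPL7 was called by edgeR, with 2 lower and 0 higher at an unadjusted p under 0.05 and 1 lower by DESeq2, and RPL7 itself had a log2 change of 0.03.

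Translation factor pseudogenes had 8 of 45 called lower and 0 higher by edgeR, with a median log2 change of -0.30. This share of 17.8% stood beside 5.85% of all pseudogenes and 19.6% of all tested loci. At an unadjusted p under 0.05 there were 10 lower and 2 higher, and DESeq2 called 10 lower and 1 higher. Of their 16 tested parents, 5 were called lower, beside 9.86% of all tested loci. Across the omissions 3 to 8 were called lower.

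The copies of EEF1A1, the elongation factor that brings aminoacyl-tRNA to the ribosome, included the most abundant pseudogene. EEF1A1P5 had 46625, 51914 and 50377 counts in normal and 31328, 29943 and 31791 in high glucose. The level fell from 583.0 ± 38.6 to 359.0 ± 23.5 CPM (SD, n = 3 each), a log2 change of -0.70 ± 0.104 (SE, adjusted p = 0.00741 by edgeR), and EEF1A1 had -0.77. EEF1A1P5 stood at 6.63% of the parent's CPM, and the ratio of the 2 did not separate the groups. EEF1A1P13 had 7397, 7455 and 4802 counts against 2279, 2882 and 3010, a log2 change of -1.28 ± 0.206 (SE, adjusted p = 0.00882 by edgeR). EEF1A1P11 had a log2 change of -1.42 and EEF1A1P9 of -1.20. EEF1A1P5, EEF1A1P13 and EEF1A1P11 were called in every omission, while EEF1A1P9 lost its call (adjusted p 0.0511) when high glucose 2 was left out. Of all 13 copies, 4 were called lower, beside 3.55% of all pseudogenes, and 11 had a log2 change below 0.

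EIF3FP3, a copy of the gene for a subunit of the initiation factor eIF3, had 3528, 3533 and 2720 counts in normal and 1777, 1854 and 2012 in high glucose. Its log2 change was -0.81 ± 0.146 (SE, adjusted p = 0.0124 by edgeR), beside -0.57 for EIF3F. When high glucose 1 was left out the adjusted p became 0.0571, and when high glucose 2 was it became 0.0592.

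Of the 94 pseudogenes at 10 CPM or more, 11 had more than a 2-fold range within normal glucose and 5 within high glucose. Among them were RPS2P5 and EEF1A1P6, which the naming rule selects for their abundance. RPS2P5, a copy of the small subunit gene RPS2, had 2880 counts in normal glucose 1 against 28480 and 27334 in the other two, and 22626, 23452 and 22145 in high glucose (adjusted p = 0.881 by edgeR). EEF1A1P6 had 2479 counts in high glucose 1 against 8536 and 7470, and 14332, 16534 and 12497 in normal glucose (log2 change -1.24, adjusted p = 0.0839 by edgeR). Neither passed the test. RPL7P1 had 15028, 15162 and 14532 counts in normal and 13881, 14312 and 13494 in high glucose (adjusted p = 0.38 by edgeR), and RPL10P9 (adjusted p = 0.576) and RPS2P46 (adjusted p = 0.0677) did not pass it either.

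Of 7 pseudogenes of amino acid and endoplasmic reticulum stress genes, only HSPA5P1 was called (14.3%, beside 5.85% of all pseudogenes). It spans chr1:38708931-38710890 on the plus strand. It had 186, 214 and 35 counts in normal glucose and 12, 9 and 6 in high glucose. Normal glucose 3 was far below the other two normal libraries, yet above all high glucose libraries, and the level fell from 1.69 ± 1.11 to 0.103 ± 0.0308 CPM (SD, n = 3 each), a log2 change of -4.01 ± 0.722 (SE, adjusted p = 0.0124 by edgeR). HSPA5 had 679369, 690437 and 134989 counts against 51125, 52645 and 50804, a log2 change of -3.29 with the same low normal glucose library. HSPA5P1 stood at 0.0278% of the CPM of HSPA5, and whether its reads came from the copy or the parent was not tested. The call of HSPA5P1 was lost without high glucose 2 (adjusted p 0.0575) and without high glucose 3 (0.0568).

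XPOTP1 is a copy of XPOT, the gene for the exporter of tRNA from the nucleus. It had 824, 771 and 422 counts in normal and 226, 250 and 262 in high glucose, a log2 change of -1.46 ± 0.275 (SE, adjusted p = 0.014 by edgeR), and XPOT had -1.58. XPOTP1 lost its call when high glucose 1, 2 or 3 was left out (adjusted p 0.0613, 0.0607 or 0.0524). Normal glucose 3 was again the lowest normal library, for the copy and for XPOT (67773, 68684 and 38997 counts).

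Of 20 pseudogenes of glycolysis genes, 1 was called higher and 1 lower (10.0%, beside 5.85% of all pseudogenes and 19.6% of all tested loci). Of their 6 tested parents 3 were called higher, beside 9.75% of all tested loci. TPI1P1 is a copy of TPI1, the triosephosphate isomerase gene. It had 662, 764 and 838 counts in normal and 1487, 1853 and 1663 in high glucose, and rose from 8.88 ± 1.22 to 19.3 ± 2.35 CPM (SD, n = 3 each), a log2 change of 1.12 ± 0.168 (SE, adjusted p = 0.00745 by edgeR). TPI1 rose by 0.76 on the same scale. TPI1P1 was called in every omission.

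Of 10 copies of GAPDH, which encodes glyceraldehyde-3-phosphate dehydrogenase, 1 was called lower and 0 higher by edgeR. At an unadjusted p under 0.05 there were 1 lower and 1 higher, as by DESeq2, and 4 of the 10 had a log2 change below 0. GAPDHP1 had 664, 582 and 654 counts in normal and 881, 892 and 982 in high glucose, a log2 change of 0.52 that did not pass the test (adjusted p = 0.0592 by edgeR), beside 0.76 for GAPDH. GAPDHP14, at chr21:29222321-29223257 on the plus strand, had 74, 156 and 105 counts in normal and 16, 35 and 12 in high glucose. Its groups did not overlap, and its log2 change was -2.43 ± 0.503 (SE, adjusted p = 0.0186 by edgeR), opposite in sign to GAPDH. It lies inside a locus with BACH1, the gene for a heme-binding repressor, on the same strand, and that locus had a log2 change of -0.40 (adjusted p = 0.101 by edgeR). GAPDHP14 lost its call without normal glucose 2 (adjusted p 0.0584), high glucose 1 (0.0736) or high glucose 3 (0.0684).

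**Figure D3:**
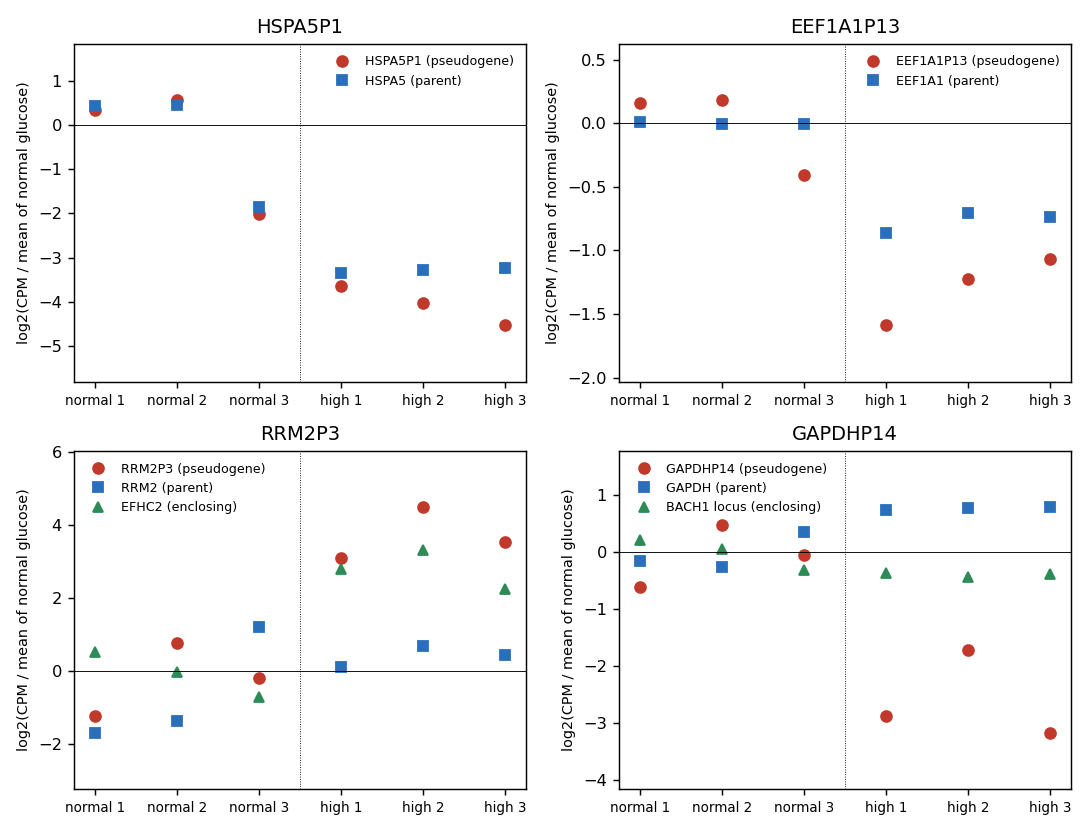
log2 of the CPM in each library over the mean of the 3 normal glucose libraries, for 4 pseudogenes (circles), their parent genes (squares) and, for 2 of them, the locus that encloses them (triangles). HSPA5P1 and HSPA5 are both low in normal glucose 3, RRM2P3 and its enclosing gene EFHC2 are higher in all 3 high glucose libraries, and GAPDHP14 lies below both GAPDH and its enclosing locus in high glucose.

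Cytoskeleton pseudogenes had 4 of 49 called higher and 1 lower (10.2%, beside 5.85% of all pseudogenes and 19.6% of all tested loci). Of their 12 tested parents 6 were called higher, beside 9.75% of all tested loci and, at 10 CPM or more, 1243 of 9430 loci with a protein-coding transcript. Of the pseudogene calls 2, ACTBP13 and KRT8P10, met the floor through high glucose alone. ACTBP2, a copy of the beta-actin gene ACTB, had 71, 73 and 70 counts in normal and 159, 200 and 203 in high glucose, a log2 change of 1.38 ± 0.24 (SE, adjusted p = 0.0113 by edgeR), beside 1.11 for ACTB. ACTBP2 lost its call without high glucose 2 (adjusted p 0.0539) or high glucose 3 (0.0536). The 10 copies of the keratin gene KRT8, whose parent had a log2 change of 1.66, differed: KRT8P3 had 1.28 and KRT8P10 had 2.52 and both were called higher, while KRT8P46 had -0.02 and KRT8P33 had -0.35 and were not. KRT8P3 had 317, 189 and 349 counts in normal and 639, 755 and 719 in high glucose, whereas KRT8P46 had 205, 214 and 195 against 226, 223 and 168. The ratio of KRT8P46 to KRT8, and that of KRT8P33 to KRT8, did not overlap between groups. KRT8P3 lost its call when high glucose 1, 2 or 3 was left out (adjusted p 0.0535, 0.0717 or 0.0711), and KRT8P10 when any library other than normal glucose 3 was (0.0547 to 0.0987).

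None of the 10 copies of KRT18, the keratin that pairs with KRT8, was called by edgeR, with 2 lower and 0 higher at an unadjusted p under 0.05 and 1 lower by DESeq2. KRT18 itself rose by 1.88 on the log2 scale. Its copies lay between 0.121 and 0.553 CPM, with a median log2 change of -0.0 and 5 of the 10 below 0. Whether their low level bears on the lack of calls was not tested.

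Other lists had few calls, with shares that stand beside 5.85% of all pseudogenes and 19.6% of all tested loci. Of 91 pseudogenes of RNA-binding and chromatin genes, 1 was called lower and 0 higher by edgeR (1.1%), with 11 higher and 6 lower at an unadjusted p under 0.05 and 7 higher and 4 lower by DESeq2. Cytosolic chaperone pseudogenes had 2 of 41 lower and 0 higher by edgeR (4.88%), with 1 higher at an unadjusted p under 0.05 and 1 by DESeq2. Of 38 pseudogenes of mitochondrial proteins, 1 was called higher (2.63%). Of 26 from the ubiquitin and proteasome genes, 1 was called higher (3.85%). Of 19 from iron and redox genes, 1 was called lower (5.26%). None of the 11 copies of the ferritin heavy chain gene FTH1 was called by edgeR or DESeq2 or had an unadjusted p under 0.05.

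The chaperone calls were both copies of ST13, a cochaperone of HSP70. ST13P21 had 23, 45 and 23 counts in normal glucose and none in high glucose, at least 2.44-fold lower against 12 counts per library (adjusted p = 0.013 by edgeR), and was called in every omission. ST13P12 had 12, 21 and 14 counts against none, at least 1.26-fold lower (adjusted p = 0.0208 by edgeR), with an adjusted p of 0.0535 to 0.0641 in 5 of the 6 omissions, all but that of normal glucose 3. Both met the floor through normal glucose alone. ST13 fell by 0.35 on the log2 scale.

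PSMC1P1, a copy of a proteasome ATPase gene, had 59, 65 and 82 counts in normal and 436, 315 and 127 in high glucose, a log2 change of 2.05 ± 0.438 (SE, adjusted p = 0.0207 by edgeR), and PSMC1 had 0.77. The call of PSMC1P1 was lost without normal glucose 1 (adjusted p 0.0695), normal glucose 2 (0.0667), high glucose 1 (0.0695) or high glucose 2 (0.0712). The calls of PRDX3P2, a copy of a mitochondrial peroxiredoxin gene, and MRPL51P2, a copy of a mitochondrial ribosomal protein gene, had adjusted p-values of 0.0486 and 0.0499 by edgeR, and the first was lost in every omission, with values from 0.0729 to 0.146. MRPL51P2 was lost in 5 of the 6, with values from 0.0811 to 0.141, and kept without normal glucose 3. With 2, 3 and 0 counts against 23, 15 and 17 it met the floor through high glucose alone, and it was the only call among the pseudogenes of mitochondrial proteins.

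Where a pseudogene carries the symbol of its parent, the changes of the pair could be set side by side. Of 1147 loci with such a name, 1083 had a parent in the table (607 parents), and 1072 of these pairs had both loci tested. Of 41 pseudogenes called lower with a tested parent, the parent was called lower in 21, higher in 2 and not called in 18. Of 23 called higher, the parent was called higher in 8, lower in 2 and not called in 13. Over all 1072 pairs the parent was called higher in 12.1% and lower in 15.2%. Near-identical copies share reads, and how such reads were assigned is not given, so a shared direction does not separate the copy from its parent.

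Shared directions were more frequent among the abundant copies, a description without a test. Among pairs with the pseudogene at 1 CPM or more, 27 were called lower, and the parent had the same sign in all 27 and was called lower in 16. Of 12 called higher at that level, the parent had the same sign in 10 and was called higher in 6. Over all 283 pairs of this level the parent had the same sign in 204 (72.1%). It was called lower in 17.3% and higher in 7.42% of them. Across the 283 pairs of this level the Spearman correlation of the log2 changes was 0.62, and across the 789 pairs under 1 CPM it was 0.17. These are descriptions across loci that share libraries and, in part, parents. The median pseudogene stood at 0.407% of its parent's CPM, a share per count and not per length.

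**Figure D4:**
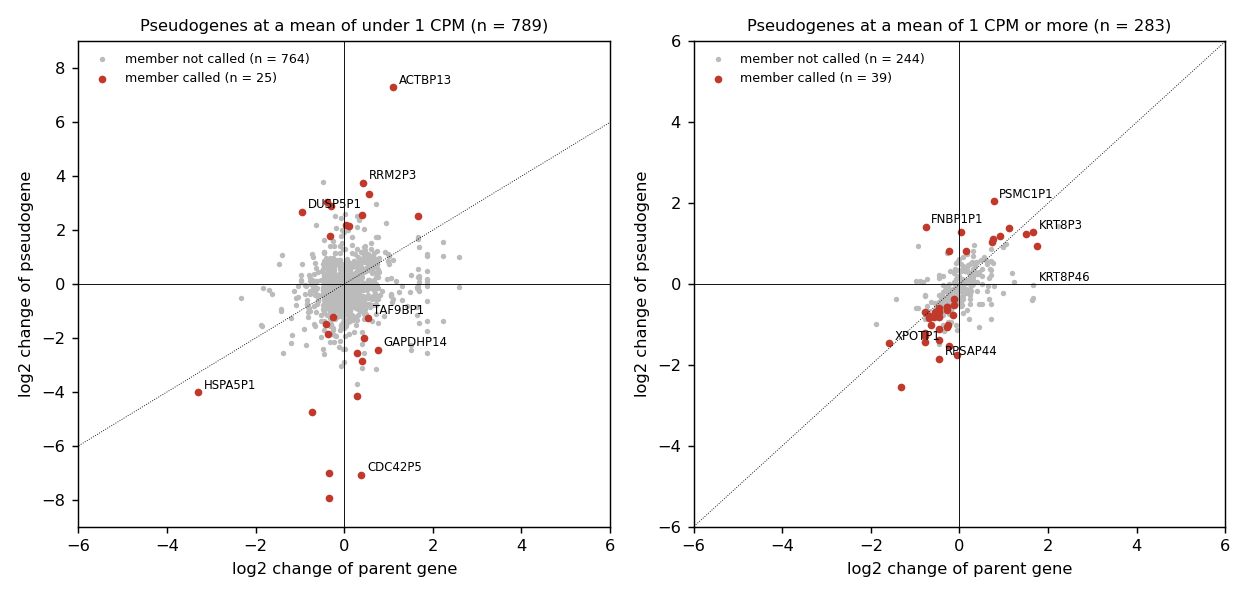
log2 change of the parent gene (horizontal axis) and of its pseudogene (vertical axis), for pairs with the pseudogene under 1 CPM (left, n = 789) and at 1 CPM or more (right, n = 283); red points are called pseudogenes and the dotted line marks equal change. On the right the parents of all 27 pseudogenes called lower had a change below 0, and on the left 7 of 14 did; fitted changes of loci without counts in 1 group (such as ACTBP13 and CDC42P5) depend on the prior count.

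In some pairs the ratio of pseudogene to parent separated the groups. With 0.5 CPM added to both, its libraries did not overlap between groups in 315 of 1083 pairs (29.1%). With 0.1 CPM added the count was 252. For comparison, the levels of 42.3% of all tested loci did not overlap. The added 0.5 CPM is above the median pseudogene level of 0.344 CPM, so the ratio of a scarce copy follows mostly its parent. With both loci at 1 CPM or more the ratios did not overlap in 56 of 280 pairs (20%). The share of the pseudogene fell in 35 of these and rose in 21. An exact permutation test of 3 against 3 libraries cannot go below p = 0.1, so no single ratio passes 0.05. The count of 315 became 397 to 523 with 1 library left out, the most without normal glucose 3. Leaving out a library cannot lower this count, so a rise was fixed in advance or the count stayed the same.

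FNBP1P1 is a copy of FNBP1, which encodes a membrane-bending protein of endocytosis. It had 37, 41 and 64 counts in normal and 130, 137 and 119 in high glucose. The groups did not overlap, and the log2 change was 1.41 ± 0.314 (SE, adjusted p = 0.0231 by edgeR). FNBP1 went the other way, with 5651, 6330 and 4435 counts against 3452, 3554 and 2830 and a log2 change of -0.76. In the omissions the adjusted p of FNBP1P1 lay between 0.0624 and 0.0857 in 5 of 6, all but that of normal glucose 3.

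DUSP5P1, a copy of the ERK phosphatase gene DUSP5, had 22, 9 and 4 counts in normal and 70, 101 and 60 in high glucose, a log2 change of 2.69 (adjusted p = 0.025 by edgeR), while DUSP5 had -0.95. The call of DUSP5P1 was lost without normal glucose 2 (adjusted p 0.0765) and without high glucose 1, 2 or 3 (0.0695, 0.0937 or 0.0668). BUD13P1, a copy of a splicing factor gene, had 7, 12 and 10 counts against 55, 102 and 91, a log2 change of 3.06 ± 0.447 (SE, adjusted p = 0.0069 by edgeR), and was called in every omission. BUD13 had a log2 change of -0.39 and did not pass the test (adjusted p = 0.0679 by edgeR). RPL29P11 had a log2 change of -0.39 (adjusted p = 0.228 by edgeR) while RPL29 had 1.64, and its 358, 480 and 333 counts in normal glucose all lay above the 309, 291 and 304 in high glucose.

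Many pseudogenes lie inside a longer locus, and the loci that enclose them were looked at after the data were seen. Of the 1913, 1265 were enclosed, 827 of them on the opposite strand, and 1183 had a tested enclosing locus. Of 35 enclosed pseudogenes called lower, the enclosing locus was called lower in 14. Of 19 called higher, it was called higher in 8. Over all 1183 it was called higher in 11.5% and lower in 14.8%. Nothing states that counting used strand, so reads of a pseudogene and of the transcript across from it cannot be told apart.

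The shared calls lay mostly with the scarce copies, again by a split at 1 CPM chosen after the data were seen. Under 1 CPM, 12 of 20 pseudogenes called lower lay in a locus called lower, and 7 of 11 called higher lay in a locus called higher. At 1 CPM or more the counts were 2 of 15 and 1 of 8. Of the called pseudogenes with both a tested parent and a tested enclosing locus, 11 of 12 under 1 CPM had a log2 change closer to that of the enclosing locus, and 10 of 13 at 1 CPM or more had one closer to that of the parent. Among those not called it was 299 for each, of 605. The called copies under 1 CPM include loci that met the floor through 1 group alone and so had to differ. CDC42P5, HMGB3P8 and RRM2P3 are among them, and the fitted change of CDC42P5 depends on the prior count. How far the counts rest on such loci was not tested. These counts are descriptions and carry no test.

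CDC42P5, a copy of CDC42, which encodes a small GTPase of cell polarity, lies at chr5:173085342-173086210 inside and opposite to CREBRF, a regulator of the stress factor CREB3. It had 12, 19 and 19 counts in normal glucose and none in high glucose, at least 1.34-fold lower against 12 counts per library (adjusted p = 0.0194 by edgeR), and met the floor through normal glucose alone. CREBRF had 10220, 11924 and 5640 counts against 2684, 2699 and 1531, a log2 change of -2.03, and the locus with CDC42 had 0.39 (adjusted p = 0.495 by edgeR). CDC42P5 lost its call without normal glucose 2 (adjusted p 0.0592) and when high glucose 1, 2 or 3 was left out (0.0542, 0.0556 or 0.0529).

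HMGB3P8, a copy of a chromatin protein gene, had 36, 35 and 35 counts in normal and 8, 8 and 2 in high glucose, a log2 change of -2.57, inside and opposite to the lipase-related gene PNLIPRP3, which had -2.87 (adjusted p of HMGB3P8 0.0316 by edgeR). HMGB3P8 met the floor through normal glucose alone. HMGB3 had 0.28. The adjusted p of HMGB3P8 lay between 0.0738 and 0.0801 in 5 of the 6 omissions, all but that of normal glucose 3. TAF9BP1, a copy of a transcription factor subunit gene, had 71, 69 and 80 counts against 37, 30 and 27 and a log2 change of -1.25 (adjusted p = 0.033 by edgeR). It lies inside and opposite to NGLY1, the gene for a cytosolic deglycosylating enzyme, which had -1.19, whereas its parent TAF9B had 0.53. The adjusted p of TAF9BP1 lay between 0.0695 and 0.112 in 5 of the 6 omissions, all but that of normal glucose 3.

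Higher pseudogenes showed the same arrangement. RRM2P3 is a copy of RRM2, the small subunit gene of ribonucleotide reductase, and lies inside EFHC2 on the same strand. It had 1, 4 and 2 counts in normal and 21, 54 and 26 in high glucose, a log2 change of 3.76 ± 0.775 (SE, adjusted p = 0.0185 by edgeR), and met the floor through high glucose alone. EFHC2 had 22, 15 and 9 counts against 111, 156 and 70 and a log2 change of 2.84, and RRM2 had 0.43. RRM2P3 lost its call without normal glucose 1 (adjusted p 0.0512), high glucose 2 (0.079) or high glucose 3 (0.0553).

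Of 18 nuclear copies of mitochondrial genome genes, 2 were called higher and 0 lower by edgeR (11.1%, beside 5.85% of all pseudogenes). The counts were the same at an unadjusted p under 0.05 and by DESeq2. MTND1P14 and MTND2P12 are copies of complex I subunit genes and lie side by side inside and opposite to the same locus, AC025627, so they are not independent. MTND2P12 had 4, 4 and 9 counts in normal and 73, 75 and 57 in high glucose (log2 change 3.53, adjusted p = 0.00624 by edgeR), and MTND1P14 had 11, 19 and 15 against 101, 86 and 62 (2.43, adjusted p = 0.00867). The enclosing locus had 206, 107 and 420 counts against 1532, 1358 and 1473 and a log2 change of 2.54. Both pseudogenes were called in every omission, and MTND2P12 met the floor through high glucose alone. All loci of the mitochondrial genome itself are listed at 0 counts, so no parent value exists.

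**Figure D5:**
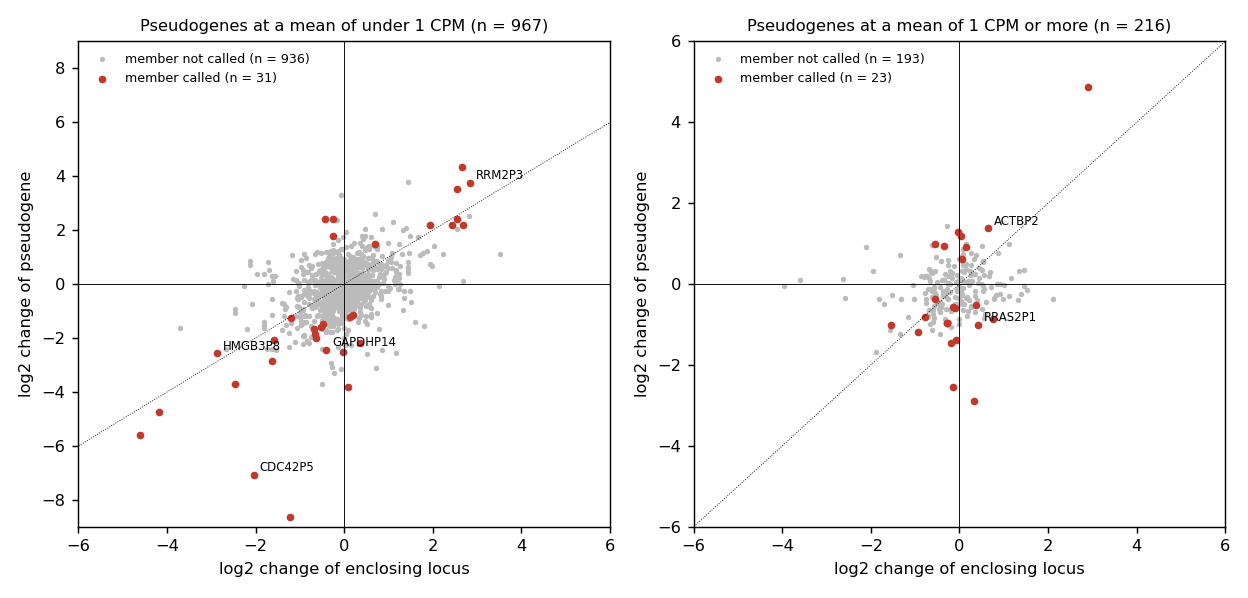
log2 change of the enclosing locus (horizontal axis) and of the pseudogene inside it (vertical axis), for pseudogenes under 1 CPM (left, n = 967) and at 1 CPM or more (right, n = 216); red points are called pseudogenes and the dotted line marks equal change. On the left 12 of 20 pseudogenes called lower lie in a locus called lower, and on the right 2 of 15. Those on the left include loci that met the floor through normal glucose alone, such as CDC42P5 and HMGB3P8. The fitted change of CDC42P5, without counts in high glucose, depends on the prior count.

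Other called pseudogenes had no tested parent or enclosing locus, or moved against the locus that encloses them. IRS3P, the remnant of an insulin receptor substrate gene, had 111, 285 and 481 counts in normal and 18, 11 and 8 in high glucose, at chr7:100570131-100571136. Its groups did not overlap despite the spread within normal glucose, the log2 change was -4.59 ± 0.638 (SE, adjusted p = 0.00606 by edgeR), and it was called in every omission. OR10V3P, an olfactory receptor pseudogene, rose from 16, 19 and 32 to 155, 105 and 111 counts (log2 change 2.43, adjusted p = 0.00839 by edgeR), inside a locus with STX3 that fell by 0.43, and was called in every omission. RRAS2P1, a copy of a RAS-related GTPase gene, had 1455, 1452 and 1194 counts in normal and 639, 734 and 696 in high glucose, a fall from 16.0 ± 1.45 to 7.99 ± 0.72 CPM (SD, n = 3 each, adjusted p = 0.00742 by edgeR), called in every omission. It lies opposite to a locus with SCP2 that had 0.43, and its parent RRAS2 had -0.64.

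GRAMD4P3 and CNOT6LP1 were called lower with adjusted p-values of 0.0475 and 0.0495 by edgeR, while their parents GRAMD4 and CNOT6L had log2 changes of 0.30 and -0.06 and were not called. GRAMD4P3 had 24, 21 and 13 counts against 3, 0 and 0 and so met the floor through normal glucose alone, and its adjusted p was 0.05 to 0.13 in 5 of the 6 omissions. CNOT6LP1 had 337, 287 and 88 counts against 74, 91 and 48, with 0.106 to 0.152 in the same number. Both were called without normal glucose 3.

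Of a list of known pseudogenes, 6 were among these loci and none of them passed edgeR's test: GAPDHP1, described above, and ANXA2P2, FTH1P3, SUMO1P3, MSTO2P and DDX12P. ANXA2P2, a copy of the annexin A2 gene, had 6344, 5733 and 8772 counts in normal and 9565, 9100 and 8765 in high glucose (log2 change 0.37, adjusted p = 0.188 by edgeR). FTH1P3 had 49, 92 and 44 counts against 94, 52 and 78 (adjusted p = 0.696), and SUMO1P3 had 16, 30 and 17 against 23, 26 and 45 (adjusted p = 0.498). MSTO2P had 2214, 2055 and 1123 against 1180, 1185 and 1181 (adjusted p = 0.119), and its normal glucose 3 count was close to those of high glucose. DDX12P had 188, 108 and 397 against 132, 90 and 123 (adjusted p = 0.179). A p above the threshold does not show that these levels were the same.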

How the data were processed

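RNA of 6 libraries was measured, 3 per glucose group. The authors deposited whole-number counts per locus, not normalized, and, per the file headers, FPKM values that they scaled by length and depth. Bowtie 0.12.2 and a mouse build, mm8, are listed in the submitters' processing notes, but 99.68% of 33520 symbols lay at their human GRCh38.p14 position. Counting tool and strand use are not given in the sources used here. The labels' protocols speak both of poly(A) selection and of fractions without poly(A). Pseudogene counts of 4, 8 and 12 (241, 253 and 370 values) were more frequent than their neighbours, as if each fragment entered about 4 times, and the floor of 12 counts would then stand for 3 fragments. All 37 loci of the mitochondrial genome are at 0.

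Loci kept by filterByExpr (25025) were tested with edgeR 4.0.16 (TMM, glmQLFit, glmQLFTest, 2-sided) with glucose group as sole term, under R 4.3.3. The fit was also run on simulated counts in which only loci above 1 CPM were changed. It therefore did not check how changed loci under 1 CPM are called. Called means an adjusted p under 0.05. Enclosing loci are those that contain a pseudogene on either strand. Alternatives used DESeq2 1.42.0 and limma 3.58.1 (log2 of FPKM plus 0.1 or 1).

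Loci, gene lists and named genes were chosen with earlier results of these data known. Genes named are the largest called changes, the most abundant loci, the pairs with the greatest difference, the leading loci of each type and list, and a list of known pseudogenes. Those outside this rule, chosen after their values were seen, are RPL14P1, EEF1A1P11, EEF1A1P9, EIF3FP3, XPOTP1, KRT8P3, KRT8P10, TAF9BP1, DUSP5P1, OR10V3P, BUD13P1 and RRAS2P1. Counts and floors cover counting error only. 1 locus that the naming rule selects is not reported here.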

Additional observations from a re-analysis of the deposited data

How the results depend on the processing

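No direction reversed under any alternative. The 44 pseudogenes called higher became 28 with no filter on low counts, 79 with DESeq2, 76 and 72 with limma on log2(FPKM + 0.1) and log2(FPKM + 1), 22 with a floor of 12 counts in all 6 libraries, and 9 to 82 with 1 library left out. The 68 called lower became 149 with DESeq2 and 20 to 115 with 1 library left out. The 94 processed loci became 191 with DESeq2 and 23 to 171 with 1 left out. The 13 unprocessed loci became 27 with DESeq2, 5 with the floor in all 6 libraries, 8 without loci at the floor in 1 group alone (added after seeing the data) and 4 to 21 with 1 left out. The 315 pairs with separate ratios became 397 to 523 with 1 left out, a count that leaving out a library cannot lower. The highest values came without normal glucose 3 and the cause was not tested. Same-numbered libraries did not pair (correlations of their deviations -0.017, -0.001 and -0.010). Of the pseudogene and parent pairs, 485 had ratio differences of the same sign in all 3 same-numbered comparisons. That rule is looser than separate ratios, so 485 and 315 do not measure the same thing. With the replicate number as a block in edgeR, the counts were 15 higher, 28 lower, 35 processed and 6 unprocessed, and 43 of the 112 called loci were called. All 112 were also called by DESeq2. The other settings stayed within 1.5 times of each count.

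Most of these loci are scarce, with 1458 of 1913 under 1 CPM. Whether depth sets the lower share called was not tested. With counts divided by 4 the calls were 48 higher and 84 lower. Reads shared with a parent or an enclosing transcript cannot be told apart.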
